A study of Hordeum vulgare with 2 samples.

Results

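The small RNAs described here are those named miR165, miR166 or miR5168 in 2 lists of degradome cuts from barley shoots, and their members are the listed sites of those names. They were found by the number in the small RNA name, which uses no measured value. They made up 496 of 17485 listed sites in ZD9 and 945 of 40424 in XZ153, or 1441 of 57909 in all. No site of either list carried a miR165 name, so all members bear miR166 (452 and 884 sites) or miR5168 (44 and 61 sites).

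The 2 libraries came from shoots of hydroponically grown seedlings of the cultivars ZD9 and XZ153, 1 library each, in a series on microRNAs of Tibetan wild and cultivated barley at low potassium. The labels do not say which cultivar is the wild one. The potassium treatments of the experiment were 0.01 mM and 1 mM, and the labels do not say which of these, or which mixture, a degradome library came from. Degradome sequencing captures RNA fragments that lack a cap and reads each from its first base, and a cut guided by a small RNA shows as reads with a common start on a transcript.

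As background, miR166 and its close relative miR165 are among the oldest microRNA families of land plants. They pair with a short coding stretch in transcripts of the class III homeodomain leucine zipper (HD-ZIP III) factors and guide their cleavage, and this restricts the factors to the upper side of the leaf, the shoot tip and the vascular tissue. The strand that guides cleavage comes from the 3′ arm of the hairpin precursor, and the 5′ arm gives the partner strand, which is usually discarded. The gene IDs of the files come without descriptions, and 0 of the 680 genes with member sites matched the RefSeq gene table given for barley, so no gene below is named as an HD-ZIP III gene.

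The 20 names fall into 3 classes by the way they are written and by sequence. There are 8 mature names of the 3′ arm (3p), 7 mature names of the 5′ arm (5p) and 5 names of hairpin arms, written MIR in capitals. The sequences below are those in the deposited lists, 5′ to 3′, with the seed (bases 2 to 8, the stretch that starts target pairing) in capitals. They are shown because names with the same seed can stand at the same cut.
hvu-miR166a: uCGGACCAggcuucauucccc
osa-miR166a-3p_1ss21CA: uCGGACCAggcuucauuccca
ata-miR166a-3p_R+2: uCGGACCAggcuucauuccccca
ata-miR5168-3p: uCGGACCAggcuucaaucccu
osa-miR166a-3p_L+1: aUCGGACCaggcuucauucccc
cme-MIR166i-p3_2ss9GT18CT: uCGGACCAugcuucauuuu
ata-miR166c-5p: gGAACGUUggcuggcucgagg
ata-miR5168-5p: gGGUUGUUgucugguucaagg
nta-MIR166a-p3_2ss11AG17AT: aUAGUUCUugguuggcuuua

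The seed CGGACCA was shared by 8 names, 7 of them mature 3p names and 1 a hairpin arm. Counted from 1 at the 5′ end of hvu-miR166a, ata-miR5168-3p carried U16A and C21U. These 2 names thus have the same seed and differ only near the 3′ end. The name osa-miR166a-3p_L+1 has 1 base more at its 5′ end, which moves its cut by 1 base. The hairpin-arm name cme-MIR166i-p3 carried G9U, C18U and C19U and is 2 bases shorter. The 5p and the other hairpin-arm names have other seeds.

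The classical type of site was found on 4 genes. In these lists it is any target that holds CCUGGUCCGG, the 10 bases from the cut onwards in the hvu-miR166a site of the lowest p-value, that of HORVU0Hr1G010250 in XZ153, so the values of that site helped to choose the letters. On the strand as listed, 25 of 15544 ZD9 sites with values (0.161%) and 19 of 40424 XZ153 sites (0.047%) held these letters. The ZD9 values end at the gene HORVU2Hr1G036110 and the XZ153 list runs on, so these shares cover unlike ranges and are not compared. Every one of these sites stood under a miR166 or miR5168 name. The letters come from a miR166 site and include the partner of the seed CGGACCA. The shared names therefore follow largely from the choice of letters and are no measure of specificity. The sites are printed as RNA, 5′ to 3′, with transcript positions and with capitals from the cut to the end of the site, because reads of a cut begin at the first capital.
HORVU0Hr1G010250 isoform 3, positions 460 to 480: ugggaaugaagCCUGGUCCGG
HORVU5Hr1G010650 isoform 1, positions 790 to 810: ugggaaugaagCCUGGUCCGG
HORVU1Hr1G041790 isoform 17, positions 315 to 334: ugggaugaagCCUGGUCCGG
HORVU5Hr1G093150 isoform 14, positions 356 to 378: gguugggaugaagCCUGGUCCGG

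The 4 sites came in 2 forms. HORVU0Hr1G010250 and HORVU5Hr1G010650 had the same 21 bases, whereas HORVU1Hr1G041790 and HORVU5Hr1G093150 shared 20 bases with each other and 16 with the first form. On the first form the best alignment had an Allen score of 1. This score adds penalties for mismatches, so a low score is a good match. The ratio of its free energy to that of a perfect duplex was 1. The second form reached Allen scores of 2 and 3.5. In all 4 sites the seed and the bases next to the cut were paired, and base 1 of the small RNA was not. The letters that define the sites lie opposite the seed and base 1, so this follows largely from the choice of letters.

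**Figure D1:**
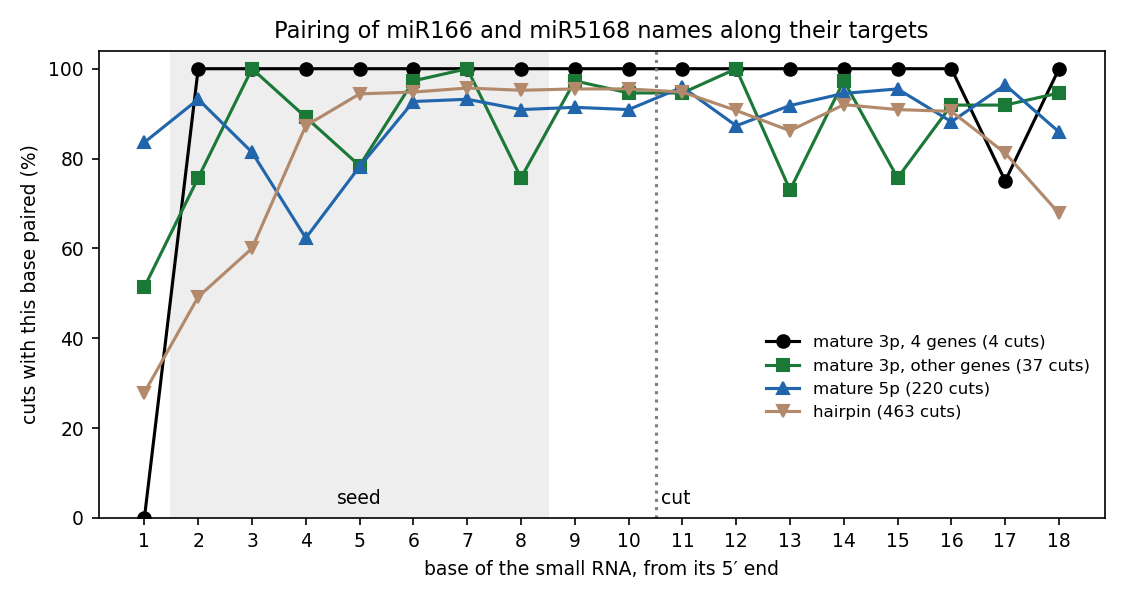
Share of distinct cuts (y axis, percent) at which each base of the small RNA (x axis, from its 5′ end) is paired, for 3p names on the 4 genes, 3p names on other genes, 5p names and hairpin-arm names over both libraries, leaving out the 10 3p cuts that stood only under osa-miR166a-3p_L+1. Bases 2 to 16 were paired in 4 of 4 cuts on the 4 genes, while base 4 was paired in 62.3% of 5p cuts and base 2 in 49.2% of hairpin-arm cuts. The letters that define the sites on the 4 genes lie opposite bases 1 to 10, so pairing there follows from the choice of sites.

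Isoforms of 1 gene repeat a cut, so records of a gene whose bases from the cut onwards agree were counted as 1 cut whatever their name. A deposited category tells how high a position stands on its own transcript, from 0 for the highest position to 4 for a single read. A record was called supported at category 0, 1 or 2 with a deposited p-value of at most 0.05. That p-value is unadjusted and asks how often an alignment this good meets such a position by chance in 1 library.

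The cut on HORVU1Hr1G041790 was the member cut with the most support in ZD9. It was listed on 18 isoforms in ZD9 and on 8 of these in XZ153. The ZD9 reads ranged from 3 to 11 over the isoforms with a median of 5.5, led by 11 reads at position 1052 of isoform 4 and 10 at position 1037 of isoform 5. The ZD9 category was 0 on 16 isoforms, 1 on isoform 13 and 2 on isoform 12. In XZ153 the category was 0 on isoform 18 alone and 4 on the other 7 isoforms.

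Isoform 18 was thus the only one at which both lists gave category 0, with 3 ZD9 reads. At its position 174 the ZD9 list gave a p-value of 0.0035 and the XZ153 list 0.00197. The ZD9 p-values of the cut ran from 0.00148 on isoform 17 to 0.352 on isoform 9. By the rule above 14 of the 18 ZD9 isoforms were supported, and 1 of the 8 in XZ153. Isoforms are not independent measurements, and with 1 library per cultivar this contrast has no replicate check and no test.

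**Figure D2:**
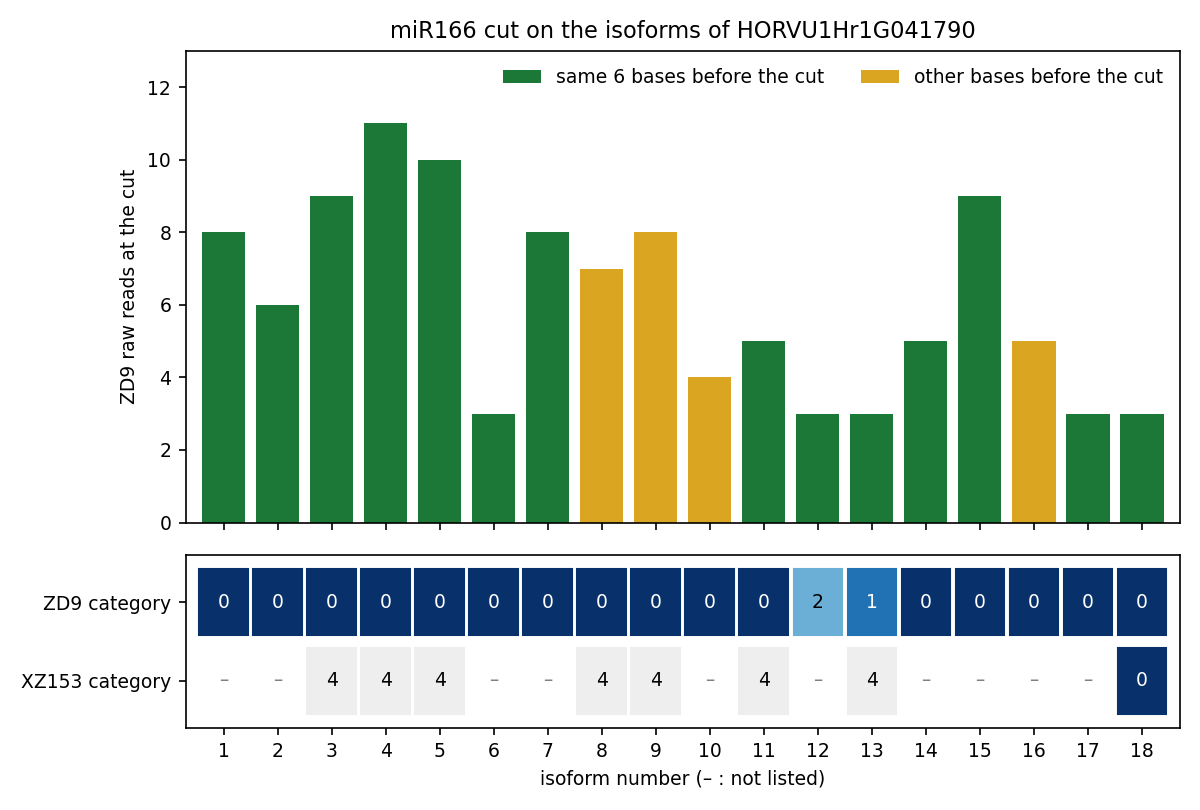
Upper panel, raw ZD9 reads at the miR166 cut (y axis) on each of the 18 listed isoforms of HORVU1Hr1G041790 (x axis), coloured by whether the 6 bases before the cut are those of the hvu-miR166a site. Lower panel, deposited category on the same isoforms in ZD9 and XZ153. The 4 isoforms with other bases before the cut held 4 to 8 reads, within the 3 to 11 of the other isoforms, and XZ153 was at category 4 on 7 of its 8 isoforms.

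On 4 of the 18 isoforms the bases before the cut were not those of the site. They are shown because the reads at these isoforms start after the difference.
HORVU1Hr1G041790 isoform 16, positions 420 to 441: ugggaugaagagCCUGGUCCGG
HORVU1Hr1G041790 isoform 10, positions 1086 to 1108: uuccugugaauagCCUGGUCCGG
Isoforms 8 and 9 carried the same bases as isoform 10. These 4 isoforms shared the last 12 bases with isoform 17 and differed before them. Isoforms 8, 9, 10 and 16 held 7, 8, 4 and 5 ZD9 reads, all in category 0. The other 14 held 3 to 11 with a median of 5.5, so the ranges overlapped. The alignment on isoforms 8, 9 and 10 was poor, with an Allen score of 10.5 and a free energy ratio of 0.652. Their ZD9 p-values were 0.343 to 0.352, and none of the 3 was supported. The p-value did not follow the Allen score alone. Isoform 4, at a score of 12.5 and a ratio of 0.798, had a ZD9 p-value of 0.00471. A read that begins at the cut holds no base before it, and from the bases listed these reads cannot be told apart from reads of isoforms with the whole site.

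The same gene had a neighbouring cut 1 base further on, under the name osa-miR166a-3p_L+1. It held 1 ZD9 read and category 4 on each of 5 isoforms (2, 5, 7, 11 and 17) and was not listed in XZ153. On these isoforms the main cut held 6, 10, 8, 5 and 3 reads. Sites of 4 other small RNA names on HORVU1Hr1G041790 reached at most 2 ZD9 reads and category 2, below every isoform of the main cut in reads.

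Isoforms with the same site bases stood under different names and had different scores. No site was listed under more than 1 name in either list, and where both lists held a member site they gave it the same name. On HORVU1Hr1G041790 the cut stood under 4 names. Where the 6 bases before the cut were those of the site, the Allen score was 2 for osa-miR166a-3p_1ss21CA, 3 for ata-miR5168-3p on isoform 2 and 12.5 for ata-miR166a-3p_R+2. The 5.5 of ata-miR5168-3p on isoform 16 and the 10.5 of osa-miR166g-3p_1ss21CT belong to isoforms with other bases there, so name and site differ together. The alignment of ata-miR166a-3p_R+2 spans 34 bases and leaves a loop in the target, as the printed form shows.
HORVU1Hr1G041790 isoform 11, positions 956 to 989: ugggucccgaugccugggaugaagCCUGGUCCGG
It ends in the same 20 bases as isoform 17, whose score was 2. Between these isoforms the name and alignment differed and the 20 bases did not.

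HORVU0Hr1G010250 went the other way between the lists. In XZ153 its cut was listed on 6 isoforms under 5 names, at category 0 on isoforms 3 and 6 and at category 4 on isoforms 1, 2, 4 and 5. In ZD9 the cut was listed on isoforms 3 and 4 only, with 1 read and category 4 on each. At position 471 of isoform 3 the p-value under hvu-miR166a was 0.0412 in ZD9 and 0.000379 in XZ153, and at the same position of isoform 6 it was 0.000227 under ata-miR5168-3p in XZ153. No site with values under any other name was listed on this gene in either library. A single read is the least a list can hold, so the ZD9 value is at the floor of detection.

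The other 2 genes lie beyond the last ZD9 transcript with values and could be read in XZ153 alone. HORVU5Hr1G010650 was category 2 at position 801 of its only listed isoform, with a p-value of 0.000814 and an Allen score of 1. HORVU5Hr1G093150 was category 4 on 4 of 4 listed isoforms, with p-values of 0.0422 to 0.0746, so its cut was not supported. Its site keeps the same 10 bases from the cut onwards, with Allen scores of 3.5 to 4.5.

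The p-values of the libraries are on different scales. Of 52 member records with the same name, site and category in both lists, 12 had p-values below 0.9 in both and were used, since the ratio is not resolved near 1. Among these, −ln(1 − p) was 1.78 times as large in ZD9 at category 0 (1 record) and 3.05 times at category 2 (3 records). It was 3.08 times at category 3 (6 records) and 1.95 times at category 4 (2 records), with no spread within a category among these 12 at this rounding. A lower p-value in XZ153 at an equal category is therefore no sign of a stronger cut.

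miR5168 added no cut of its own that was supported. The name ata-miR5168-3p had 3 records on 2 cuts in ZD9 and 12 on 10 cuts in XZ153. Its supported cuts were that of HORVU1Hr1G041790 in ZD9, with 6 reads on isoform 2 and 5 on isoform 16, and that of HORVU0Hr1G010250 in XZ153. Both are also listed under miR166 names on other isoforms. The partner strand ata-miR5168-5p, which carries A3G and A4U against ata-miR166a-5p, had 41 and 49 records, and its lowest p-values were 0.497 in ZD9 and 0.465 in XZ153.

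Among 3p names the 4 genes were the whole of the well-paired set. At an Allen score of at most 4 there were 2 of 13 cuts in ZD9 and 4 of 42 in XZ153, all on the 4 genes. Of the 51 3p cuts over both libraries, 10 stood only under osa-miR166a-3p_L+1, whose bases are numbered 1 further on, and were left out of the count of paired bases. Among the others outside the 4 genes the seed was fully paired in 10 of 37 cuts (27%, exact Clopper-Pearson 95% interval 13.8 to 44.1%), against 4 of 4 on the 4 genes. The letters that define the 4 sites include the partner of the seed, so this contrast follows from the choice of sites. In XZ153 a 3p cut on HORVU3Hr1G092710, chosen after its values were seen, was also category 0, with an Allen score of 14.5 and a p-value of 0.121.

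The 5p names gave poorly paired cuts, few of them supported. None of their cuts reached an Allen score of 4 or less, in 65 cuts of ZD9 and 175 of XZ153. Taken as 3 divided by the number of cuts, this allows a share of up to 4.62% in ZD9 and 1.71% in XZ153. The supported cut found in both libraries was that of ata-miR166c-5p on HORVU1Hr1G061830, a site in which 18 of 20 bases are G or C.
HORVU1Hr1G061830 isoform 3, positions 864 to 883: cccgggcgggCCGGCGUUCC
In ZD9 it held 7 reads at position 874 of isoform 3, 8 at position 1014 of isoform 6, 8 at position 780 of isoform 7 and 5 at position 750 of isoform 8. The ZD9 category was 2, 2, 2 and 3 in that order, and the XZ153 category was 2 on all 4. The p-values were 0.00743, 0.0099, 0.0173 and 0.00584 in ZD9, and 0.00244, 0.00325, 0.00568 and 0.00487 in XZ153.

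At categories 2 and 3 this cut was not the highest position of its transcripts. Sites of 14 other small RNA names on HORVU1Hr1G061830 held up to 11 reads in ZD9. The same 20 bases were listed on HORVU1Hr1G061890, a gene chosen after its values were seen. There the cut at position 114 held 5 ZD9 reads, with category 3 and a p-value of 0.00487 in ZD9 and category 4 and 0.0213 in XZ153. Reads of the 2 genes cannot be separated at this site from the bases listed.

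Another 2 supported 5p cuts were found in XZ153 alone. That of ata-miR166b-5p_L-2R+1 on HORVU0Hr1G009280 was category 1 with a p-value of 0.0394 and an Allen score of 6.5. That of ata-miR166c-5p on HORVU4Hr1G079950 was category 1 on isoform 5 (p-value 0.0278, Allen score 9) and category 4 on the other 2 listed isoforms.
HORVU0Hr1G009280 isoform 2, positions 750 to 771: cguucgagccgcGGCGUCGUUC
HORVU4Hr1G079950 isoform 3, positions 1279 to 1302: ccucgagcagCCCAUGAACGUUCC
The gene HORVU0Hr1G009280 lies in the range of both lists and had no ZD9 site with values under any name, while HORVU4Hr1G079950 lies beyond it.

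**Figure D3:**
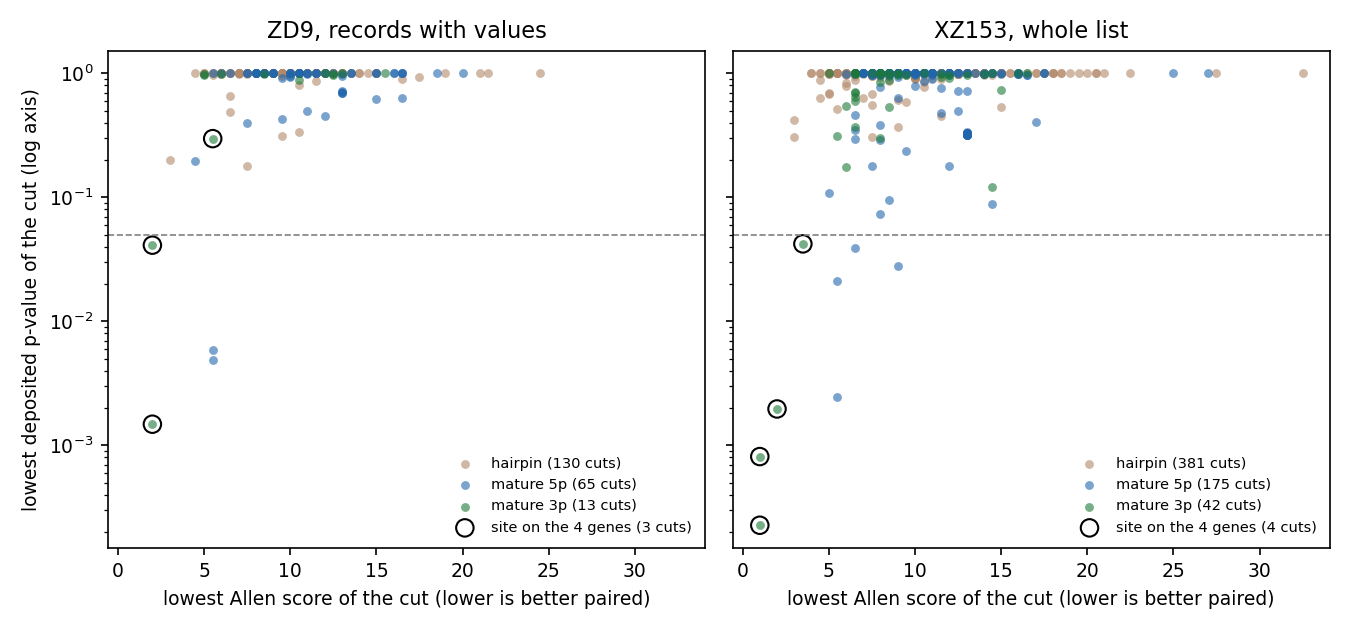
Lowest Allen score (x axis) and lowest deposited p-value (y axis, log scale) of each member cut in ZD9 (left) and XZ153 (right), coloured by class of name, with cuts on the 4 genes of the classical site ringed and the p-value of 0.05 dashed. The score and the p-value of a point can come from different isoforms, as for HORVU1Hr1G041790 in XZ153 (Allen score 2 on isoform 5, p-value 0.00197 on isoform 18), and the ringed 0.298 in ZD9 is the neighbouring cut 1 base further on.

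The hairpin-arm names supplied most records and no supported cut. They made up 130 of 208 member cuts in ZD9 and 381 of 598 in XZ153. The single name nta-MIR166a-p3_2ss11AG17AT accounted for 178 of the 496 ZD9 sites and 370 of the 945 XZ153 sites. Their lowest p-values were 0.18 in ZD9 and 0.307 in XZ153. Taken as 3 divided by the number of cuts, a count of 0 supported cuts allows a share of up to 2.31% in ZD9 and 0.787% in XZ153. Over all names 0.404% of cuts were supported in ZD9 and 0.619% in XZ153. Both shares lie below these limits, so the count of 0 does not set the hairpin-arm names apart.

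Reads alone did not single out the supported cuts in ZD9. The cut with the most reads stood under cme-MIR166b-p3_2ss11TA17TC on HORVU1Hr1G052430, with 16 and 9 reads on 2 isoforms, category 2, an Allen score of 6 and a p-value that rounded to 1. The same name held 10, 13 and 15 reads on 3 isoforms of HORVU1Hr1G055520. ata-miR166d-5p_2ss3AT20GT held 6, 9 and 13 reads on HORVU0Hr1G003270, where sites of other names reached 64 reads. HORVU1Hr1G088870 and HORVU1Hr1G088880, under nta-MIR166a-p3, held 6 and 9 reads each at an Allen score of 15. At these cuts the ZD9 p-values of all 5 genes rounded to 1. In XZ153 the cut was listed under a member name on 4 of the 5, HORVU1Hr1G052430 being the exception.

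**Figure D4:**
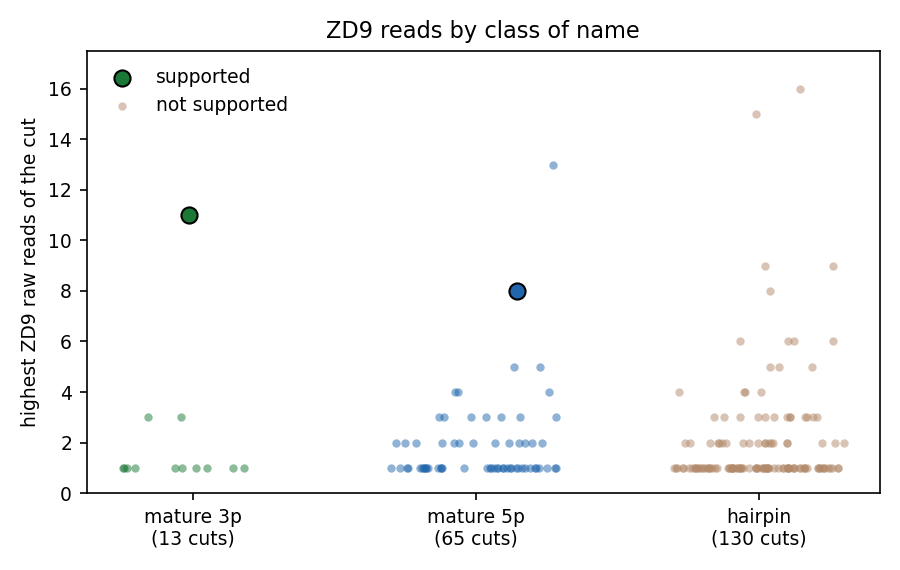
Highest raw ZD9 reads over the isoforms of each member cut (y axis) by class of name (x axis), with supported cuts drawn large and outlined. The supported cuts held 11 and 8 reads, and 3 cuts that were not supported held 13, 15 and 16.

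Good pairing alone did not single them out either. HORVU1Hr1G081280 had an Allen score of 3 under gma-MIR166u-p5_1ss11TA but held 1 or 2 ZD9 reads, with p-values no lower than 0.201 in ZD9 and 0.307 in XZ153. HORVU1Hr1G075560, HORVU1Hr1G022810, HORVU1Hr1G084560 and HORVU2Hr1G034040 came next in ZD9, with Allen scores of 4.5 to 5 and at most 4 reads at those cuts. Other ZD9 cuts tied at a score of 5, and HORVU1Hr1G084560 and HORVU2Hr1G034040 were taken from the tie by their lower p-values. In XZ153 the genes HORVU5Hr1G096520, HORVU7Hr1G068630 and HORVU3Hr1G078780 had Allen scores of 3 to 4 and 1 listed isoform each, in category 4.

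Counted over the ID range that both lists cover, up to the gene HORVU2Hr1G036110, the members had 448 records on 190 genes in ZD9 and 232 records on 137 genes in XZ153. These are 208 cuts in ZD9 (exact Poisson 95% interval 181 to 238) and 147 in XZ153 (124 to 173). Intervals cover counting error only, since PCR copies are not independent molecules. The depth of both libraries is unknown, so the difference in number has no scale.

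Supported were 2 of the 208 cuts in ZD9 (0.962%), where 0.404% of all cuts in the range were supported. In XZ153 4 of 147 were supported (2.72%), with 1.00% of all cuts, and over its whole list 6 of 598, beside 0.619% of all. These shares rest on 2, 4 and 6 cuts and were not tested against the background. The limit of 0.05 is not on the same scale in both libraries, so their shares are not compared with each other. The supported cuts were 1 of 3p and 1 of 5p names in ZD9, and 2 of each in XZ153 in the range. Of these, the 3p cut on HORVU1Hr1G041790 and the 5p cut on HORVU1Hr1G061830 were supported in both libraries. In XZ153 the support of HORVU1Hr1G041790 came from isoform 18 alone, at an Allen score of 12.5. Its well-paired isoform 5 (Allen score 2) was category 4 there with a p-value of 0.0545. In ZD9 the same score of 12.5 stood on supported isoforms too, led by isoform 4 with 11 reads. The ZD9 list also supported better-paired isoforms, such as 5 and 17 at an Allen score of 2. With an Allen score of at most 4 required, the supported cuts became 1 in ZD9 and 1 in XZ153 in the range, and neither cut was then supported in both.

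Category 0 was reached on any isoform by 5 of 208 cuts in ZD9 (2.4%; 2.03% of all cuts) and by 2 of 147 in XZ153 (1.36%; 1.78% of all cuts). Both background shares lie within the counting intervals of the members, which ran from 0.785 to 5.52% for ZD9 and from 0.165 to 4.83% for XZ153. In the whole XZ153 list the number was 6 of 598, beside 1.83% of all cuts. The 4 other category 0 cuts of ZD9 were under hairpin-arm names on HORVU0Hr1G038320, HORVU1Hr1G057330, HORVU1Hr1G061160 and HORVU1Hr1G085730, chosen after their values were seen, with 2 to 6 reads and p-values of 0.338 to 0.803. In XZ153, 2 of the category 0 cuts stood under ata-miR166d-5p_2ss3AT20GT, on HORVU5Hr1G000320 (6 isoforms, p-values of 0.0949 to 0.0994) and HORVU6Hr1G058830 (0.0884), also chosen after their values were seen.

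**Figure D5:**
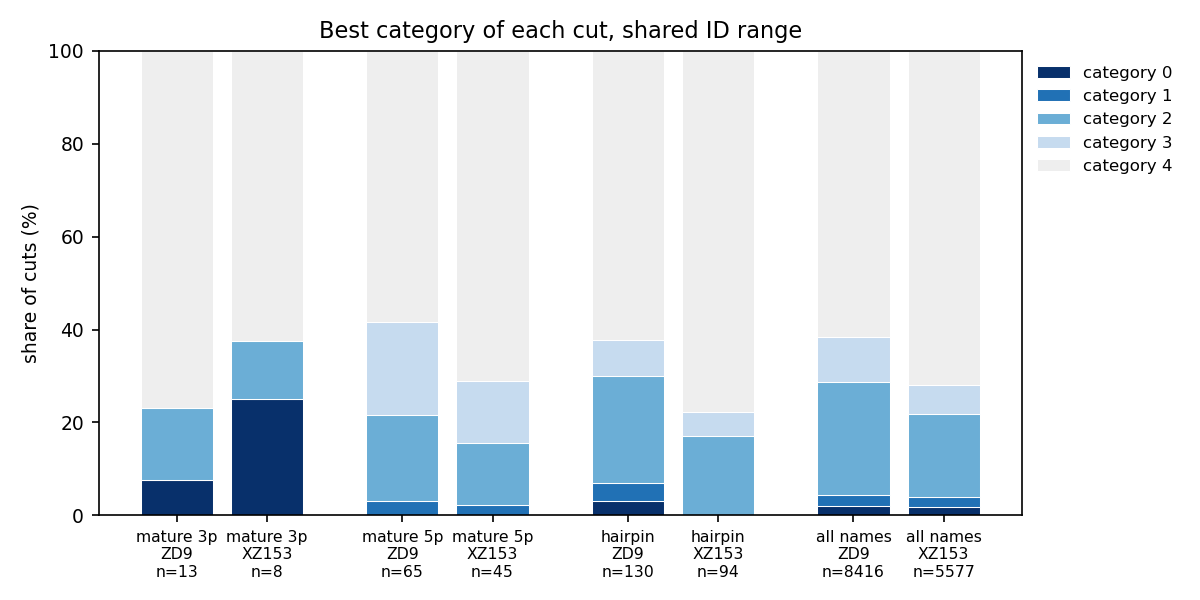
Share of cuts (y axis, percent) by the best category over their isoforms, for 3p, 5p and hairpin-arm names and for all small RNA names, ZD9 left of XZ153 in each pair, in the ID range both lists cover. Category 4 made up 76.9% and 62.5% of the 3p cuts in ZD9 and XZ153, and 61.7% and 71.9% of all cuts.

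Of the member cuts in that range 72 were in both lists. They are 34.6% of the ZD9 cuts (28.2 to 41.5%), with 28.5% over all names, and 49% of the XZ153 cuts (40.7 to 57.3%), with 43.0% over all names. Of ZD9 member cuts with 1 read 20.9% (14.3 to 29%) were also in XZ153, and of those with 2 or more reads 57% (45.3 to 68.1%). This split by reads was not made over all names, so it cannot be read as a trait of the members. The 3p class shared 4 cuts, out of 13 in ZD9 and 8 in XZ153. Hairpin-arm cuts, of which none was supported, were in both lists for 36.9% of the ZD9 cuts, and 5p cuts for 30.8%. That difference was not tested.

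Of 93 member records with the same name and site in both lists, the category was equal for 52, lower in ZD9 for 32 and lower in XZ153 for 9. The same count over all names was not made. Over all names in the shared ID range, category 0 to 2 was reached by 28.7% of cuts in ZD9 and 21.8% in XZ153. These shares include cuts found in 1 list only, unlike the member count. Whether a lower category in ZD9 is particular to the members was not tested. HORVU1Hr1G041790 gave 7 of the 32 and HORVU0Hr1G010250 gave 1 of the 9. Isoforms repeat cuts in these counts, and the density of positions with reads, which differs between the libraries, was not adjusted for.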

How the data were processed

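The deposited tables are CleaveLand output, per the file headers and plot paths; for its version, the aligner and the transcript release: not given in the sources used here. Raw read counts, per the file headers, are given for ZD9 only, and their deposited normalised form was not used. The deposited p-value, Allen score, category (a score from 0 to 4) and free energy ratio were read as given. Of the member records, 48 in ZD9 hold no values and entered only the number listed. A further 3 lines of ZD9 and 20 of XZ153 are not analysed here. Per the labels' protocols, poly(A) RNA was ligated, amplified over 15 cycles and read at 50 nt.

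Records of 1 gene were merged where at least 8 bases from the cut agreed. In 514 of 514 ungapped member records the cut lay opposite base 10. Genes named were every supported gene, the 5 others with most ZD9 reads and the 5 others best paired per library. Members, lists and rules were chosen with earlier results of these data known. Merging was tested on simulated data. Alternatives covered limits, merging and ranges. No test compared libraries. Python 3.11.15, pandas 2.3.3 and scipy 1.17.1 were used.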

Additional observations from a re-analysis of the deposited data

How the results depend on the processing

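Of 44 alternative values, 25 stayed within 1.5 times the count or within the 95% interval and 19 moved. Whether any direction turned was not assessed. The supported cuts, 2 in ZD9, 6 in the whole XZ153 list and 4 in its shared range, became 1, 2 and 2 with category 0 only, 1, 2 and 1 at an Allen score of at most 4, and 17, 10 and 8 without merging isoforms. Mature names alone left 78 of the 208 cuts in ZD9 and 53 of the 147 in XZ153, and the whole XZ153 list gave 598. Requiring the same transcript and position put 20.8% of ZD9 and 40.1% of XZ153 sites in both lists, and within 1 nt 21.7% of ZD9 sites. At a lowest Allen score of at most 4, category 0 was reached by 1 of 3 cuts in ZD9 (33.3%, 0.84 to 90.6%). In XZ153 it was reached by 2 of 8 (25%, 3.19 to 65.1%). Among well-paired cuts of all names the shares were 4.28% in ZD9 and 6.51% in XZ153. Score and category of a cut can come from different isoforms. In XZ153 the cut on HORVU1Hr1G041790 counts with an Allen score of 2 on isoform 5, which was category 4. Its category 0 was on isoform 18, at an Allen score of 12.5. The share became 0% in both libraries with the worst category over isoforms. It was 66.7% in XZ153 at a score of at most 2.5, where the same cut counts. At a score of at most 6 it was 3.57% in ZD9 and 4.26% in XZ153. The reads at the HORVU1Hr1G041790 cut were 11 at the highest isoform and 3 at the lowest. Requiring agreement on both sides of the cut, chosen after seeing the data, gave 3, 6 and 4 supported cuts. No paired analysis was possible because each cultivar has 1 library. Single reads make up 62% of ZD9 cuts, which limits every comparison.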
